A study of Rattus norvegicus with 30 samples.

Results

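The enzymes described here break down amino acids in the liver cell. Chosen with earlier results of this data set known, the set lists 44 genes by symbol for the reactions they catalyse. Of these, 43 had a probe set named with their symbol in the platform annotation used here, and all 43 passed the filter on dim probe sets and were tested among 11494 genes. The imidazolonepropionase gene Amdhd1 was not analysed here. Where a gene had several probe sets, the brightest over the 30 arrays stood for it.

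The study exposed primary rat hepatocytes to chlorpromazine HCl, a phenothiazine antipsychotic that can injure the liver, at 0.8 or 20 µM, or to vehicle (1% DMSO), and collected RNA after 24 or 48 h. The 6 groups of 5 arrays were the vehicle, 0.8 µM and 20 µM cultures at each time. All cells were frozen hepatocytes of male Sprague Dawley rats from a supplier, and dosing began on the third day of culture. The dosing stocks of all concentrations were made in DMSO according to the labels, but only the vehicle labels give a DMSO content for the sample itself. The 5 samples of a group were separate wells described as independent cultures. The labels do not say how many animals the cells came from, so p-values measure the spread between wells and not between animals. The arrays of a group are named 1 to 5 here in the order in which they are listed, and the labels give them no such numbers. The same number in different groups marks the same run of 6 array numbers in the titles, described below. The labels do not say what a run stands for, and the main fit had no term for it. The vehicle array numbered 2 at 24 h carries a different time in its title than in its time entry, and it was used at 24 h. Without it, 32 enzymes were still called lower at 20 µM and 24 h. The titles number the 30 arrays in runs of 6 that each hold 1 array of every group, and each group kept its position in the run, so the position within a run and the group cannot be told apart.

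The liver is the main site of breakdown for most amino acids. Each amino acid has its own route: a first step usually removes the amino group or opens a ring, and later steps turn the carbon skeleton into intermediates of the citric acid cycle or of ketone body synthesis. Methionine is handled differently, through a cycle of methyl transfer from which homocysteine is either remethylated with betaine or drained into cysteine, and the choline breakdown products dimethylglycine and sarcosine feed folate-bound carbon in the mitochondria. Many of these enzymes are abundant in adult liver and respond to glucagon, glucocorticoids and diet.

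The deposited values had been scaled so that the mean of each array between its 2nd and 98th percentiles was 1500.6 to 1500.7. Each array correlated with the others of its group at a mean of 0.965 to 0.974 on the log2 scale. Of 7 hepatocyte markers tested, albumin (Alb), transthyretin (Ttr), Apoa1, Ahsg, Serpina1 and Hnf4a were not called at 20 µM at either time, and only fibrinogen beta (Fgb) was, with a log2 change of -0.25 (adjusted p 0.028) at 48 h. Of 6 Kupffer cell markers tested, 2 were lower and 0 higher at 24 h, and 2 were lower (Cd14 and Lyz2) and 1 higher at 48 h. The higher one was Cd68, a lysosomal membrane protein, at 1.44 (adjusted p 4.98e-11). The summed signal of the 7 Kupffer cell markers measured ran from 26401 to 29201 in vehicle and 22003 to 25716 at 20 µM at 24 h, and from 26817 to 28871 and 18239 to 20174 at 48 h. The endothelial and stellate markers, 5 tested of each, had no call at 20 µM, and of 2 bile duct markers the dim Krt19 was lower at 24 h, at -1.28 (adjusted p 0.00682). The part of other cell types in the results below was not tested. In bulk RNA, fewer cells of a type and less RNA per cell cannot be told apart.

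At 20 µM the amino acid enzymes fell together. Signals were compared as log2 of the array signal, where a change of -1 is a halving, and a gene was called when its adjusted p in limma (Benjamini-Hochberg over the 11494 genes) was under 0.05. At 24 h, 32 of 43 enzymes were lower than vehicle and 0 were higher, where 10.4% of all genes were lower and 13.4% higher. At 48 h, 35 were lower and 0 higher, against 14.9% and 20.3% of all genes. The enzymes were chosen with earlier results of these data known, so these counts are no independent test. The median log2 change of the 43 enzymes was -0.43 at 24 h and -0.58 at 48 h, beside 0.01 and 0.04 over all genes tested. Of all calls, 43.8% were lower at 24 h and 42.3% at 48 h. When the arrays were centred on their medians, which raised the median change of all genes by 0.0584 and 0.0413, these shares became 30.9% and 34.4%, and the enzymes' medians became -0.38 and -0.54.

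The decline was visible on single arrays. For 29 enzymes at 24 h every 20 µM array lay below every vehicle array, as for 7.56% of all genes, and for 33 enzymes at 48 h, as for 11.2% of all genes. At least a 2-fold fall was called for 3 enzymes at 24 h (Sds, Bhmt and Uroc1), against 0.609% of all genes, and for 10 at 48 h, against 2.05%. Sds was near the background, as described with its values. The mean log2 signal of the 43 enzymes on an array ran from 13.02 to 13.21 in vehicle and 12.55 to 12.67 at 20 µM at 24 h, and from 13.09 to 13.19 and 12.38 to 12.50 at 48 h. No 20 µM array reached a vehicle array of its time on this mean.

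**Figure D1:**
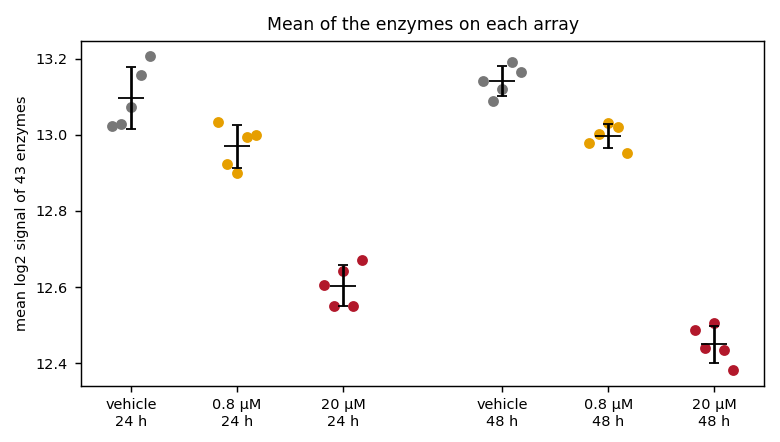
Mean log2 signal of the 43 enzymes (vertical axis) on each of the 30 arrays, by dose and time; points are arrays, the cross-bar is the group mean and the whisker its SD. The 20 µM arrays at 48 h, from 12.38 to 12.50, lie lowest; the 0.8 µM arrays overlap vehicle at 24 h (12.90 to 13.03 beside 13.02 to 13.21) and lie below it at 48 h (12.95 to 13.03 beside 13.09 to 13.19).

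**Figure D2:**
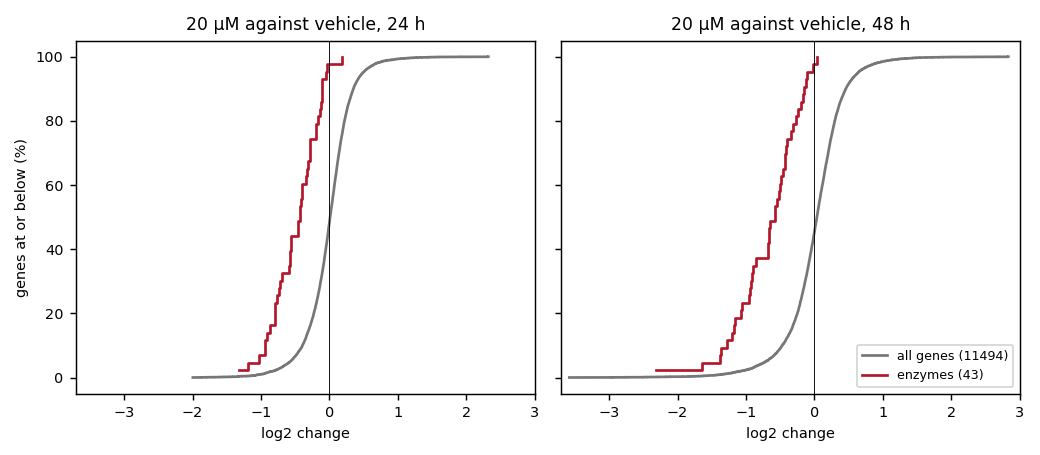
Share of genes (vertical axis, percent) at or below each log2 change at 20 µM against vehicle (horizontal axis), for the 43 enzymes and for all 11494 genes tested, at 24 h and 48 h. The curve of the enzymes lies to the left, with medians of -0.43 and -0.58 beside 0.01 and 0.04.

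Falls were counted by route, beside 10.4% and 14.9% of all genes called lower at 24 h and 48 h. The routes hold 1 to 9 tested enzymes, and differences between them were not tested. Called lower at 24 h and 48 h were 3 and 4 of 5 enzymes of tyrosine breakdown, 2 and 4 of 5 of tryptophan, 3 and 3 of 3 of histidine, 6 and 5 of 8 of methionine and cysteine, 4 and 4 of 4 of glycine and sarcosine, 2 and 2 of 3 of proline and ornithine, and 7 and 8 of 9 of the branched chain amino acids. Of the 4 general aminotransferases 3 were lower at each time, and so were the single enzymes of serine and lysine breakdown. That of serine, Sds, was near the background. By place in the cell, 15 and 17 of 22 cytosolic enzymes and 15 and 16 of 19 mitochondrial enzymes were lower. The median change at 48 h was -0.53 in the cytosol and -0.58 in the mitochondria.

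**Figure D3:**
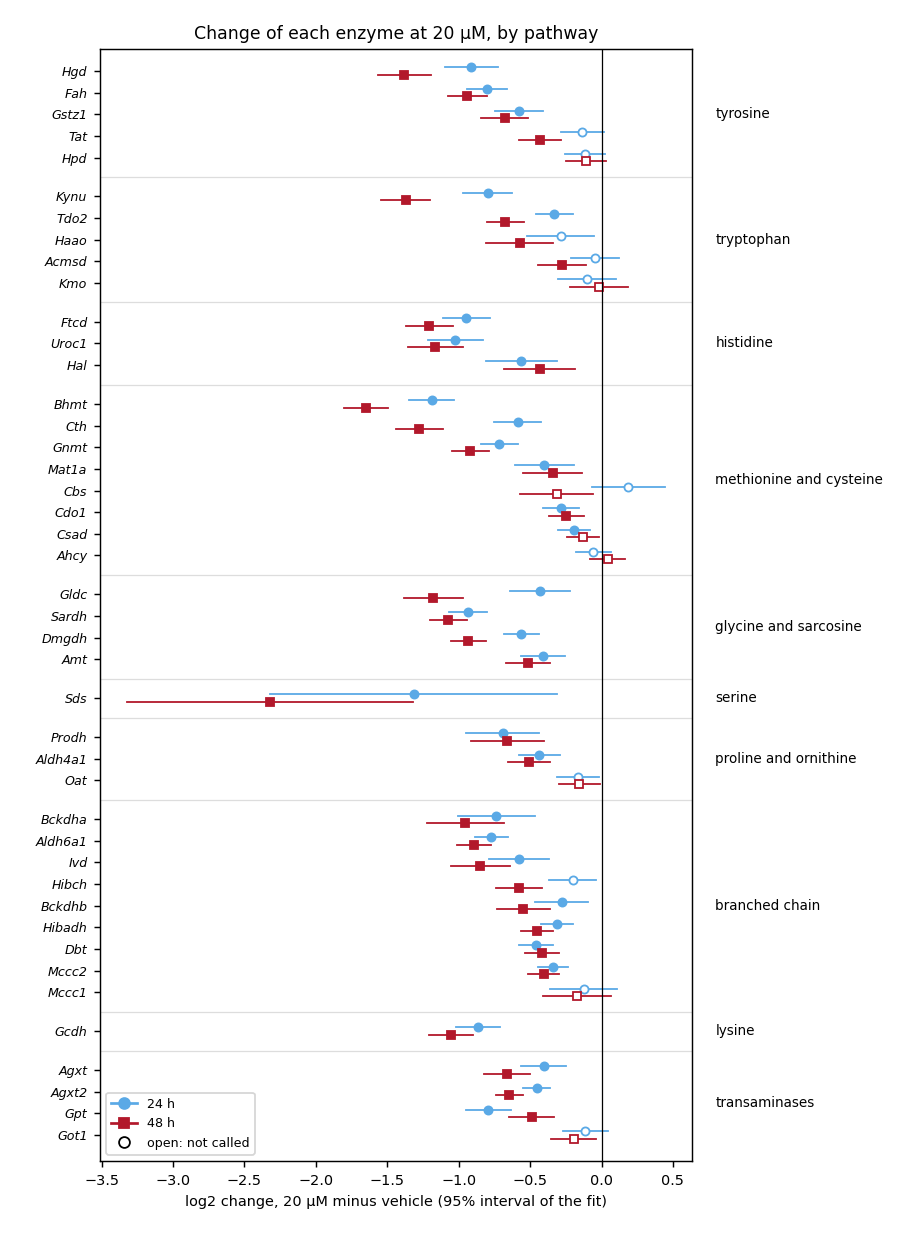
Log2 change of each of the 43 enzymes at 20 µM against vehicle (horizontal axis) at 24 h (circles) and 48 h (squares), ordered by pathway; bars are 95% intervals of the limma fit and open symbols were not called. At 48 h, 35 filled squares lie left of 0 and 8 symbols are open.

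The stretch before the gene is printed for the 3 enzymes with the largest falls at 48 h among those with a RefSeq promoter, and for the enzyme with the highest change, to set genes that fell together beside a gene that was not called. RefSeq promoters of build GRCr8 matched 34 of the 44 genes, with 36 start sites. Each sequence holds the 250 bases before the start site, 5′ to 3′ on the gene's strand.
Bhmt, chr2:26614430-26614679, minus strand: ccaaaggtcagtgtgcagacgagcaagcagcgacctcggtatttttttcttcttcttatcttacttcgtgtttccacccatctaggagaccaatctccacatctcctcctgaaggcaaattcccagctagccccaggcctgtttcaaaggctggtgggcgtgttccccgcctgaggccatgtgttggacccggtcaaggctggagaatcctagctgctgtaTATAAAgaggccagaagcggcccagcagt
Hgd, chr11:76643768-76644017, minus strand: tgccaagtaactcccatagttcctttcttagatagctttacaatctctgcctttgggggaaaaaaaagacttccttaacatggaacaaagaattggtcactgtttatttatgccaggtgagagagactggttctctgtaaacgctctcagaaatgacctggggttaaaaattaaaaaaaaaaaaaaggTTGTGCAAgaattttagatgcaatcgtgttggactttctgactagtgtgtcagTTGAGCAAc
Kynu, chr3:48188036-48188285, plus strand: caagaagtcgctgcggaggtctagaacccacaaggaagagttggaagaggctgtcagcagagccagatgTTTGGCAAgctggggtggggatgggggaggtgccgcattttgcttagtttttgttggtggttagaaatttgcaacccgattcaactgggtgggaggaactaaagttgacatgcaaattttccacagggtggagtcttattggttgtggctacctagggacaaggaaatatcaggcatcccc
Ahcy, chr3:164044563-164044812, minus strand: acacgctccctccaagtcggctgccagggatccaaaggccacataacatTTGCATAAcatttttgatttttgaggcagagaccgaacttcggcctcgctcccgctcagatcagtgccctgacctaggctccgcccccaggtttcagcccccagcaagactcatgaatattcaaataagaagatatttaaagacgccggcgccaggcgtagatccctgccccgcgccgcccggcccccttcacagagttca
Capitals mark matches, on either strand, to 6 short motifs. No match overlapped another in these windows. The C/EBP letters TTGCNNAA were found 2 times in Hgd, with left ends 62 and 9 bases before the start, and 1 time each in Kynu and Ahcy. The TATA box letters TATAAA stood 29 bases before the start of Bhmt. Over all enzyme windows, the C/EBP letters were in 3 of 36 (8.33%), against 9.22% of all 33469 promoters of the same length. The TATA box was in 6 windows (16.7%, against 12.9%). The core of a cAMP response element, TGACG, was in 2 windows (5.56%, against 18.2%). The HNF4 letters CAAAGTCCA were in 2 windows, of Kmo and Agxt2 (5.56%, against 0.338%). The HNF1 core GTTAAT was in 3 windows (8.33%, against 6.45%). The core of a glucocorticoid response element, TGTTCT, was in 5 windows (13.9%, against 17.5%). A match is a description of letters and not of a bound site. The printed windows were picked by the change of their genes, and a link between motifs and changes was not tested.

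In tyrosine breakdown the 3 later enzymes were called lower at both times, and the 2 earlier ones at 48 h alone or at neither time. Homogentisate dioxygenase (Hgd, probe set 1398514_at), which opens the aromatic ring, gave log2 signals of 11.66, 11.56, 11.67, 11.70 and 11.54 in the vehicle arrays at 48 h and 10.32, 10.27, 10.32, 10.16 and 10.14 in the 20 µM arrays. Its change was -1.38 (SE 0.09, adjusted p 8.08e-14), a 2.6-fold fall. At 24 h the vehicle arrays read 11.57, 11.39, 11.15, 11.69 and 11.73 and the 20 µM arrays 10.61, 10.58, 10.82, 10.33 and 10.63, a change of -0.91 (SE 0.09, adjusted p 3.32e-09). The 20 µM arrays lay below all vehicle arrays at both times, and the lowest were those of 48 h. The enzymes after Hgd, maleylacetoacetate isomerase (Gstz1) and fumarylacetoacetate hydrolase (Fah), fell by 0.58 and 0.80 at 24 h and by 0.68 and 0.94 at 48 h on the log2 scale.

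The first step of the route, tyrosine aminotransferase (Tat), changed by -0.13 at 24 h without a call (adjusted p 0.202) and fell at 48 h, by 0.43 (adjusted p 1.71e-05). The second, 4-hydroxyphenylpyruvate dioxygenase (Hpd, probe set 1368188_at), is among the 3 enzymes with the smallest change at 48 h. Its vehicle arrays at 48 h read 16.18, 16.13, 16.19, 16.30 and 16.30 and its 20 µM arrays 16.25, 16.003, 16.04, 16.13 and 16.12, and the groups overlapped. The difference of -0.11 had a 95% interval of -0.25 to 0.03. At 24 h, vehicle read 16.13, 16.15, 16.31, 16.40 and 16.20 and 20 µM 15.95, 15.91, 16.19, 16.27 and 16.31, where 2 arrays of the 20 µM group were low and 3 were not.

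Tryptophan is opened by tryptophan dioxygenase (Tdo2), and kynureninase (Kynu) later splits off alanine. Kynu (probe set 1398282_at) read 12.75, 12.88, 12.63, 12.85 and 12.71 in vehicle at 48 h and 11.52, 11.36, 11.47, 11.41 and 11.21 at 20 µM, and fell by 1.37 (SE 0.08, adjusted p 1.93e-14). At 24 h it read 12.34, 12.20, 12.30, 12.30 and 12.64 in vehicle and 11.64, 11.55, 11.64, 11.32 and 11.65 at 20 µM, a change of -0.80 (SE 0.08, adjusted p 1.12e-08). No 20 µM array reached a vehicle array at either time. Tdo2 (probe set 1368720_at), which sets the flow into the route, also fell. Its vehicle arrays at 48 h read 16.18, 16.03, 16.27, 16.34 and 16.25 and its 20 µM arrays 15.69, 15.58, 15.56, 15.39 and 15.48, a change of -0.67 (SE 0.06, adjusted p 2.02e-10). At 24 h the values were 15.99, 16.01, 16.16, 16.16 and 16.17 in vehicle and 15.72, 15.68, 15.80, 15.75 and 15.90 at 20 µM, a change of -0.33 (SE 0.06, adjusted p 1.40e-04). Both sets of 20 µM arrays lay below their vehicle arrays.

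Between Tdo2 and Kynu in the route stands kynurenine monooxygenase (Kmo, probe set 1368915_at), a mitochondrial outer membrane enzyme, which was not called. Vehicle arrays at 48 h read 10.17, 9.87, 10.25, 10.22 and 9.75 and 20 µM arrays 9.94, 10.27, 9.77, 10.11 and 10.09, a difference of -0.02 with a 95% interval of -0.22 to 0.19. The groups overlapped. At 24 h the difference was -0.10, with 20 µM arrays from 10.22 to 10.39 and vehicle arrays from 10.26 to 10.49. Downstream, 3-hydroxyanthranilate dioxygenase (Haao) and aminocarboxymuconate semialdehyde decarboxylase (Acmsd), which sends the route away from NAD synthesis, were called only at 48 h, with changes of -0.57 (adjusted p 1.51e-04) and -0.27 (adjusted p 0.00889). Without the 20 µM array numbered 1, Acmsd changed by -0.18 (adjusted p 0.053).

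All 3 measured enzymes of histidine breakdown fell. Formimidoyltransferase cyclodeaminase (Ftcd, probe set 1387877_at), which passes the one-carbon unit of histidine to folate, read 15.03, 15.09, 15.06, 15.16 and 15.16 in vehicle at 48 h and 14.07, 13.92, 14.003, 13.91 and 13.57 at 20 µM, a change of -1.21 (SE 0.08, adjusted p 9.67e-14). At 24 h it read 14.88, 14.87, 14.84, 15.03 and 15.22 in vehicle and 14.11, 13.97, 14.13, 13.92 and 13.98 at 20 µM, a change of -0.95 (SE 0.08, adjusted p 1.45e-10). The 20 µM arrays stood apart from vehicle at both times, with the lowest one at 48 h. Urocanate hydratase (Uroc1) fell by 1.02 at 24 h and 1.17 at 48 h. Histidine ammonia lyase (Hal), the first step, fell by 0.56 and 0.43, and its groups overlapped at 48 h.

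In the methionine cycle the largest fall was that of betaine homocysteine methyltransferase (Bhmt, probe set 1387665_at), which remakes methionine with betaine. Its vehicle arrays at 48 h read 16.25, 16.20, 16.35, 16.41 and 16.37 and its 20 µM arrays 14.90, 14.60, 14.64, 14.70 and 14.48. The change was -1.65 (SE 0.08, adjusted p 3.37e-17), a 3.14-fold fall. At 24 h the readings were 16.22, 16.28, 16.46, 16.57 and 16.41 in vehicle and 15.11, 15.12, 15.34, 14.997 and 15.42 at 20 µM, a change of -1.19 (SE 0.08, adjusted p 5.26e-13). The 48 h values at 20 µM lay below all those at 24 h. Glycine N-methyltransferase (Gnmt), which uses up surplus S-adenosylmethionine, fell by 0.72 and 0.92. The synthetase that makes this methyl donor in adult liver (Mat1a) fell by 0.40 and 0.34. S-adenosylhomocysteine hydrolase (Ahcy, probe set 1367798_at), the step that releases homocysteine, had no call. Ahcy read 15.85, 15.69, 15.73, 15.87 and 15.88 in vehicle at 48 h and 15.97, 15.73, 15.87, 15.91 and 15.77 at 20 µM, a difference of 0.04 with a 95% interval of -0.08 to 0.17. At 24 h the difference was -0.06, with vehicle arrays from 15.84 to 16.03 and 20 µM arrays from 15.73 to 16.01.

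Of the 2 enzymes that carry homocysteine to cysteine, the second was called lower and the first was not. Cystathionine gamma-lyase (Cth, probe set 1367838_at), the second of them, read 14.72, 14.70, 14.76, 14.85 and 14.78 in vehicle at 48 h and 13.55, 13.50, 13.53, 13.42 and 13.43 at 20 µM, a change of -1.28 (SE 0.08, adjusted p 4.04e-14). At 24 h it read 14.43, 14.37, 14.39, 14.49 and 14.93 in vehicle and 14.01, 13.83, 14.04, 13.84 and 13.97 at 20 µM, a change of -0.59 (SE 0.08, adjusted p 1.31e-06). Every 20 µM array was lower than every vehicle array. Cystathionine beta-synthase (Cbs), the first, was not called: its differences were 0.19 (adjusted p 0.321) at 24 h and -0.31 (adjusted p 0.0511) at 48 h, with 95% intervals of -0.07 to 0.44 and -0.57 to -0.06. Cysteine dioxygenase (Cdo1, probe set 1367755_at), which starts cysteine oxidation towards taurine, read 15.10, 15.27, 15.19, 15.38 and 15.25 in vehicle at 48 h and 15.12, 14.90, 14.90, 14.96 and 15.07 at 20 µM, a smaller fall of 0.25 (adjusted p 0.00163). The groups overlapped at 48 h and did not at 24 h, where the change was -0.28. Cysteine sulfinate decarboxylase (Csad) fell at 24 h, by 0.19, and was not called at 48 h, at -0.13 (adjusted p 0.064). The 24 h call of Csad was not made with arrays centred on their medians (-0.13, adjusted p 0.17).

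The mitochondrial enzymes that take apart glycine and the choline products all fell. Glycine decarboxylase (Gldc, probe set 1376427_a_at), the core of the glycine cleavage system, read 13.22, 13.09, 13.25, 13.28 and 13.65 in vehicle at 48 h and 12.17, 12.06, 12.36, 12.05 and 11.96 at 20 µM. Its change was -1.18 (SE 0.10, adjusted p 4.17e-11). At 24 h vehicle read 12.72, 12.74, 12.85, 12.89 and 12.73 and 20 µM 11.95, 12.53, 12.45, 12.41 and 12.44, a smaller change of -0.43 (SE 0.10, adjusted p 0.00168). The groups did not overlap at either time. Both other probe sets of Gldc were called lower too, at -0.59 and -1.13 at 24 h and -1.26 and -1.30 at 48 h. The aminomethyltransferase of the same system (Amt) fell by 0.41 and 0.51. Dimethylglycine dehydrogenase (Dmgdh, probe set 1370936_at) read 13.47, 13.53, 13.77, 13.55 and 13.74 in vehicle at 48 h and 12.72, 12.68, 12.73, 12.71 and 12.55 at 20 µM, a change of -0.93 (SE 0.06, adjusted p 5.60e-14). At 24 h the values were 13.34, 13.39, 13.26, 13.52 and 13.61 in vehicle and 12.81, 12.82, 12.91, 12.87 and 12.91 at 20 µM, a change of -0.56 (SE 0.06, adjusted p 1.46e-08). No 20 µM array of Dmgdh reached a vehicle array. Sarcosine dehydrogenase (Sardh), the next step, fell by 0.93 and 1.07, and its second probe set was called lower at both times.

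Serine dehydratase (Sds, probe set 1369864_a_at), which turns serine into pyruvate for glucose synthesis, was dim. Vehicle arrays at 48 h read 8.90, 8.56, 7.20, 9.02 and 7.97 and 20 µM arrays 6.62, 5.40, 6.10, 5.31 and 6.64, a change of -2.32 (SE 0.49, adjusted p 3.10e-04). At 24 h vehicle read 8.37, 8.63, 8.95, 8.64 and 7.75 and 20 µM 6.78, 7.10, 6.01, 7.57 and 8.30, a change of -1.32 (SE 0.49, adjusted p 0.0497), and the groups overlapped. Its signal was above the 40th percentile of the array on 16 of the 30 arrays, while the other 42 enzymes were above it on all 30. Every 20 µM array at 48 h lay below a log2 signal of 8.09, which is where the 40th percentile of the arrays sits on average. Sds thus passed the filter through groups where it was brighter, and the size of its fall is poorly measured. It is still counted among the enzymes called lower. The 24 h call was kept without 2 of the 10 arrays in turn, the vehicle array and the 20 µM array numbered 5. It was lost without each of the others, at -1.03 to -1.42.

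Proline dehydrogenase (Prodh, probe set 1372920_at), the first mitochondrial step of proline oxidation, read 11.61, 11.45, 11.49, 11.35 and 11.68 in vehicle at 48 h and 10.93, 10.66, 10.97, 11.23 and 10.48 at 20 µM, a change of -0.66 (SE 0.12, adjusted p 6.72e-05). At 24 h vehicle read 11.09, 11.50, 11.32, 11.68 and 11.49 and 20 µM 11.05, 10.61, 10.67, 10.51 and 10.77, a change of -0.69 (SE 0.12, adjusted p 6.47e-05). The groups did not overlap, though at 24 h the highest 20 µM array, 11.05, lay next to the lowest vehicle array, 11.09. A second, dimmer probe set of Prodh did not pass the filter, and the mean of both gave 0.15 at 24 h and -0.30 at 48 h with no call. Pyrroline-5-carboxylate dehydrogenase (Aldh4a1), the step that follows, fell by 0.43 and 0.51. Ornithine aminotransferase (Oat), which joins this route from ornithine, was not called, at -0.16 (adjusted p 0.093) and -0.16 (adjusted p 0.0852).

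The branched chain amino acids share the branched-chain ketoacid dehydrogenase complex, whose E1 alpha subunit (Bckdha) carries the regulatory phosphorylation sites. Bckdha (probe set 1370897_at) read 11.73, 11.89, 12.02, 11.87 and 11.93 in vehicle at 48 h and 11.15, 10.81, 11.12, 11.19 and 10.42 at 20 µM, a change of -0.95 (SE 0.13, adjusted p 5.36e-07). At 24 h vehicle read 11.57, 11.56, 11.57, 11.66 and 11.84 and 20 µM 10.93, 10.64, 11.26, 10.79 and 10.89, a change of -0.74 (SE 0.13, adjusted p 6.55e-05). No array of the groups overlapped, though the 20 µM arrays spread widely at 48 h. Its second probe set gave -0.73 and -1.11 without a call (adjusted p 0.371 and 0.109). The E1 beta subunit (Bckdhb) fell by 0.28 and 0.55 and the E2 core (Dbt) by 0.46 and 0.42. The 24 h call of Bckdhb was lost without the 20 µM array numbered 2 (-0.19), the vehicle array numbered 4 (-0.24) or the vehicle array numbered 5 (-0.23), and with arrays centred on their medians (-0.22). Averaging Dbt with a second probe set that failed the filter gave -0.45 at 24 h without a call (adjusted p 0.314).

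After the shared complex the routes part. In leucine breakdown, isovaleryl-CoA dehydrogenase (Ivd) fell by 0.58 and 0.85. The 2 subunits of methylcrotonyl-CoA carboxylase differed in call: the beta subunit (Mccc2) fell by 0.34 and 0.41, and the alpha subunit (Mccc1) was not called, at -0.13 (adjusted p 0.494) and -0.17 (adjusted p 0.274). In valine breakdown, methylmalonate semialdehyde dehydrogenase (Aldh6a1) fell by 0.77 and 0.89, with a second probe set also called lower. 3-Hydroxyisobutyrate dehydrogenase (Hibadh) fell by 0.31 and 0.45. 3-Hydroxyisobutyryl-CoA hydrolase (Hibch) was not called at 24 h, at -0.20 (adjusted p 0.0622), and fell by 0.58 at 48 h.

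Lysine and tryptophan both pass through glutaryl-CoA dehydrogenase (Gcdh, probe set 1388788_at). It read 14.21, 14.18, 14.14, 14.23 and 14.10 in vehicle at 48 h and 13.29, 13.08, 13.17, 13.06 and 12.98 at 20 µM, a change of -1.06 (SE 0.08, adjusted p 6.02e-13). At 24 h vehicle read 13.85, 13.99, 13.99, 14.22 and 14.34 and 20 µM 13.29, 13.15, 13.31, 13.19 and 13.15, a change of -0.86 (SE 0.08, adjusted p 2.48e-10). The groups stood apart at both times. Of its 2 other probe sets, 1 was also called lower, at -0.78 and -1.02, and the other was not, at -0.39 and -0.46.

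Among the aminotransferases that serve several amino acids, alanine aminotransferase (Gpt, probe set 1387052_at), the enzyme assayed in blood as a sign of liver injury, fell at both times. It read 14.20, 14.34, 14.44, 14.46 and 14.27 in vehicle at 24 h and 13.41, 13.58, 13.48, 13.69 and 13.59 at 20 µM, a change of -0.79 (SE 0.08, adjusted p 2.31e-09). At 48 h vehicle read 13.83, 13.73, 13.99, 13.94 and 14.07 and 20 µM 13.40, 13.53, 13.52, 13.18 and 13.48, a change of -0.49 (SE 0.08, adjusted p 5.63e-06). The test of the difference between the times did not call it, at 0.31 (adjusted p 0.124). Agxt (probe set 1387215_at), which clears glyoxylate and uses serine and alanine, read 12.32, 12.22, 12.43, 12.29 and 12.24 in vehicle at 48 h and 11.60, 11.53, 11.79, 11.55 and 11.71 at 20 µM, a change of -0.66 (SE 0.08, adjusted p 2.99e-08), after -0.41 (SE 0.08, adjusted p 1.78e-04) at 24 h. Its 20 µM arrays lay below vehicle at both times. Agxt2 fell by 0.45 and 0.65. Cytosolic aspartate aminotransferase (Got1) was not called, at -0.11 (adjusted p 0.329) and -0.19 (adjusted p 0.0509).

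**Figure D4:**
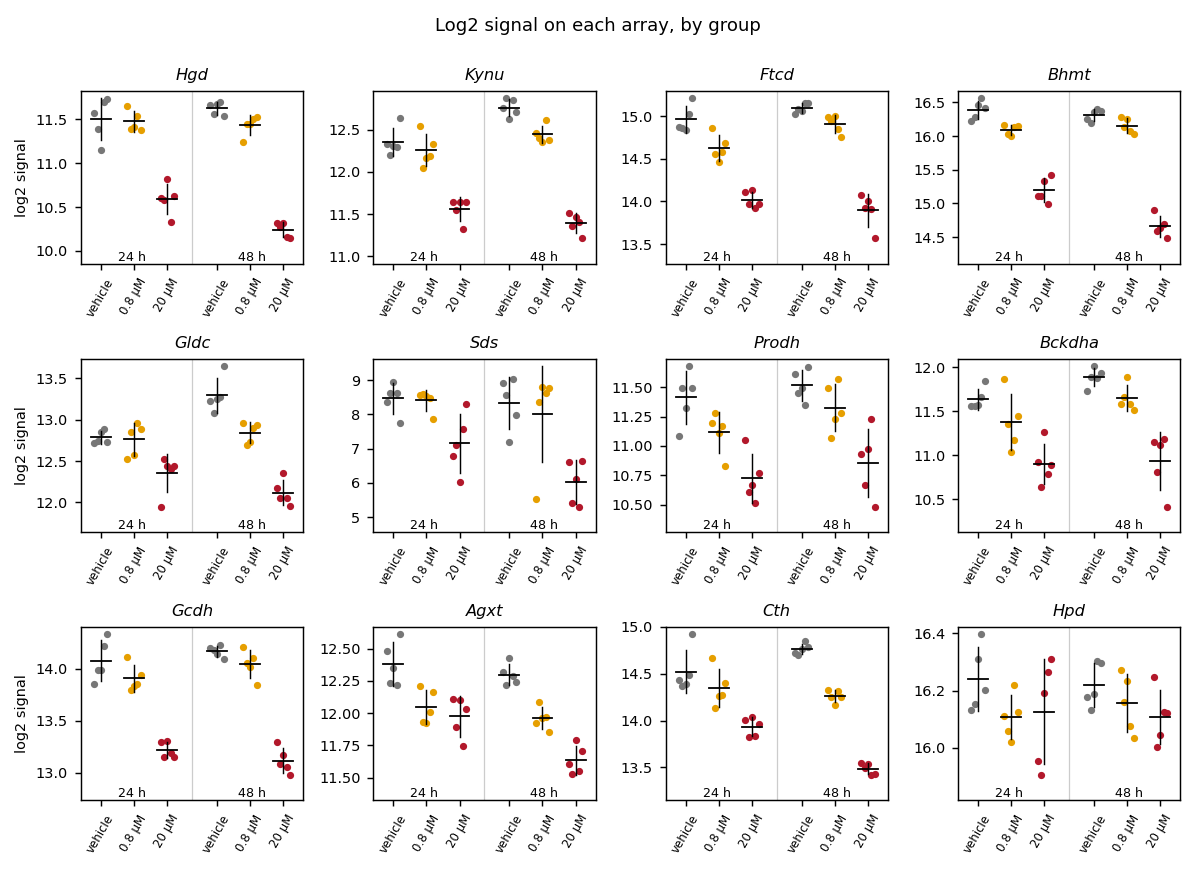
Log2 signal (vertical axes, each with its own range) on each array for 12 of the enzymes, by dose and time; points are arrays, the bar is the group mean and the whisker its SD. For Hgd, Kynu, Ftcd, Bhmt and Gcdh the 20 µM arrays lie clear of vehicle at both times, and for Hpd they overlap it.

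Most enzymes called at 1 time were called at the other. Of the 43 enzymes, 31 were called lower at 24 h and at 48 h, 1 at 24 h only (Csad), 4 at 48 h only (Tat, Haao, Acmsd and Hibch) and 7 at neither (Hpd, Kmo, Cbs, Ahcy, Oat, Mccc1 and Got1). Across the 43 enzymes the changes at the 2 times, which share no array, correlated with a Pearson r of 0.866 and a Spearman rho of 0.863, beside 0.598 and 0.603 over all 11494 genes. Genes on the same arrays are not independent. The change was larger in size at 48 h for 32 of the 43 and for 7095 of the 11494 genes, and 956 of all genes were called lower at both times.

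Whether the 20 µM effect itself differed between the times was tested as the effect at 48 h minus that at 24 h. It was called for 7 enzymes, all with a larger fall at 48 h, and for 0 in the other direction, where 2.43% and 1.78% of all genes were called. At an unadjusted p under 0.05, the difference was below 0 for 15 enzymes and above 0 for 1, and for 908 and 990 of all genes. The 7 were Gldc with -0.75 (SE 0.14, adjusted p 0.0014), Cth with -0.69 (SE 0.11, adjusted p 2.50e-04), Kynu with -0.57 (SE 0.12, adjusted p 0.00317), Hgd with -0.47 (SE 0.13, adjusted p 0.0288), Bhmt with -0.46 (SE 0.11, adjusted p 0.00987), Dmgdh with -0.37 (SE 0.09, adjusted p 0.00814) and Tdo2 with -0.34 (SE 0.09, adjusted p 0.0195). In the vehicle cultures, 4 of these 7 were themselves higher at 48 h than at 24 h: Gldc by 0.51, Kynu by 0.41, Cth by 0.24 and Dmgdh by 0.19. In the 20 µM cultures, Cth and Dmgdh were lower at 48 h than at 24 h, at -0.45 (adjusted p 2.04e-04) and -0.18 (adjusted p 0.0486), while Gldc and Kynu were not called, at -0.24 (adjusted p 0.154) and -0.17 (adjusted p 0.242). Leaving out any single array of the 10, Dmgdh was no longer called lower with time at 20 µM, and lay between -0.20 and -0.15. For Bhmt, whose vehicle level differed by -0.07 (adjusted p 0.622) between the times, the 20 µM arrays alone were lower at 48 h, by 0.53 (adjusted p 6.49e-06).

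The Hgd difference was lost without the 20 µM array numbered 3 at 24 h (-0.41), the 20 µM arrays numbered 4 or 5 at 48 h (-0.45 and -0.44), the vehicle arrays numbered 2 or 3 at 24 h (-0.44 and -0.38) or the vehicle array numbered 4 at 48 h (-0.45). With arrays centred on their medians 4 of the 7 were called, and Hgd, Tdo2 and Dmgdh were not. With the mean of its probe sets the Gldc difference was -0.53 and not called (adjusted p 0.0712), nor was its vehicle rise of 0.35 (adjusted p 0.0521).

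**Figure D5:**
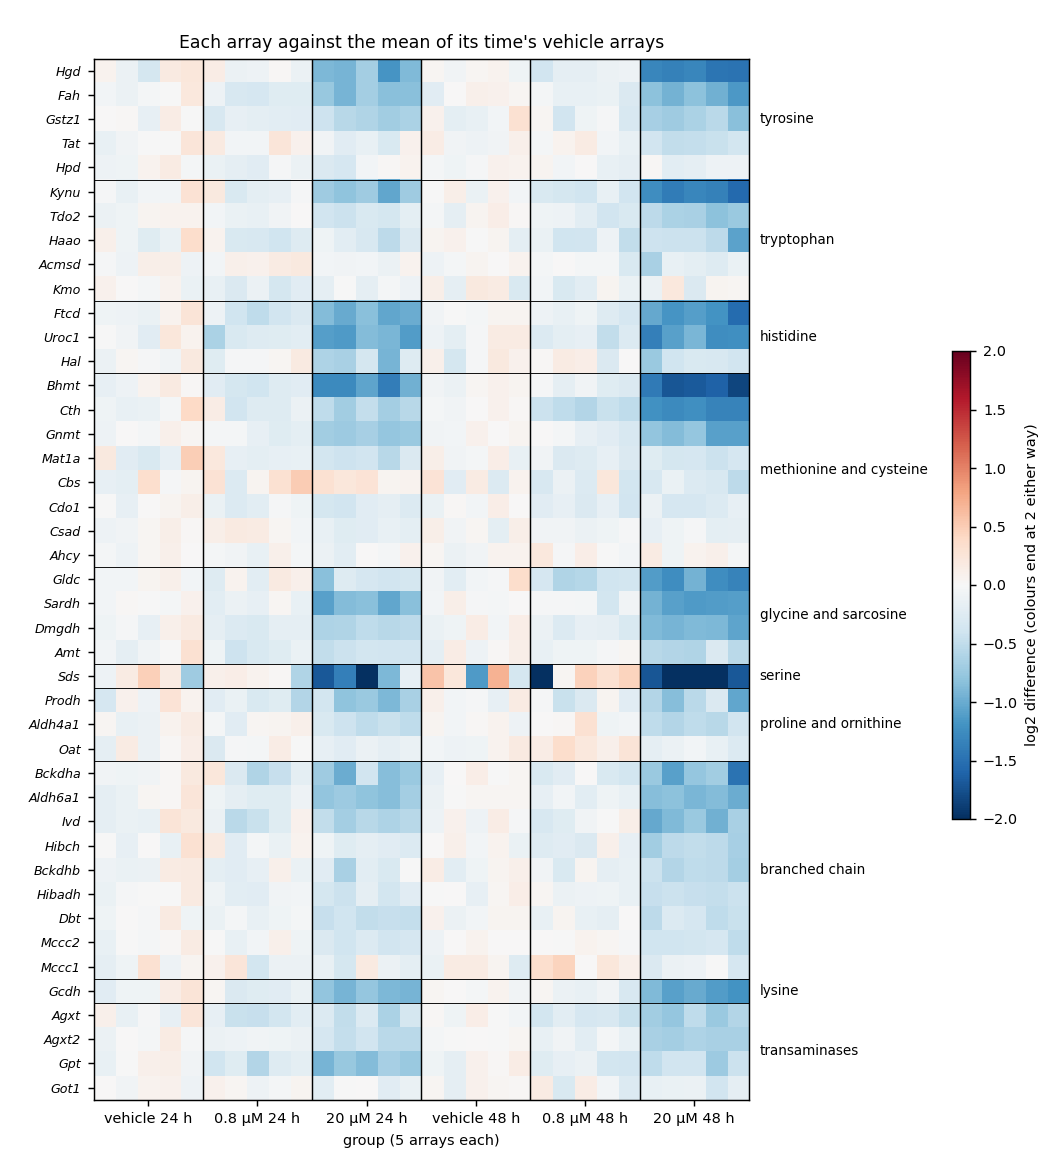
Log2 difference (colour) of each enzyme (rows, by pathway) on each of the 30 arrays (columns, by group) from the mean of the vehicle arrays of the same time. The 20 µM columns are blue in most rows and deeper at 48 h, while there the rows of Hpd, Kmo, Ahcy, Oat, Mccc1, Csad and Got1 are pale. The vehicle columns show the spread between wells.

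At 0.8 µM few enzymes were called, though most changes were small and below 0. Changes were below 0 for 38 of 43 enzymes at 24 h and 37 at 48 h, beside 5513 and 5376 of the 11494 genes. An unadjusted p under 0.05 was reached by 19 enzymes lower and 0 higher at 24 h, beside 639 and 715 of all genes. For 48 h these numbers were 19 and 1, beside 789 and 996. At 24 h, 3 of 43 were lower than vehicle and 0 higher, where 0.426% of all genes were lower, and the median change of the 43 was -0.12. They were Ftcd at -0.33 (SE 0.08, adjusted p 0.0372), Gpt at -0.34 (SE 0.08, adjusted p 0.0319) and Agxt at -0.33 (SE 0.08, adjusted p 0.0359). Ftcd read 14.87, 14.56, 14.46, 14.59 and 14.68 at 0.8 µM, and 1 array reached into the vehicle range of 14.84 to 15.22. Gpt read 13.94, 14.10, 13.75, 14.09 and 14.15, all below the vehicle range of 14.20 to 14.46. Agxt read 12.21, 11.93, 11.92, 12.01 and 12.17, all below the vehicle range of 12.22 to 12.62. Each of these calls was lost without single arrays. Without the 0.8 µM array numbered 2, 3 or 4, or the vehicle array numbered 4, 0 enzymes were called, and likewise with arrays centred on their medians. Ftcd was also lost without the 0.8 µM or the vehicle array numbered 5, Agxt without the vehicle arrays numbered 1, 3 or 5, and Gpt without those numbered 2 or 3. Over all omissions of 1 array of either group, Ftcd lay between -0.39 and -0.27, Agxt between -0.37 and -0.27 and Gpt between -0.37 and -0.27.

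At 48 h, 6 of 43 were lower at 0.8 µM and 0 higher, where 1.74% of all genes were lower, and the median was -0.15. Cth had the largest of these falls, -0.50 (SE 0.08, adjusted p 3.04e-04). It read 14.33, 14.25, 14.17, 14.31 and 14.25 at 0.8 µM, below all vehicle arrays and above all 20 µM arrays. Gldc read 12.96, 12.69, 12.73, 12.90 and 12.93 at 0.8 µM and changed by -0.45 (SE 0.10, adjusted p 0.00957), with no array in the vehicle range. Its change was not called when its second probe set stood for the gene (-0.28, adjusted p 0.133). Agxt, at 11.92, 12.09, 11.96, 11.97 and 11.85, changed by -0.34 (SE 0.08, adjusted p 0.0119) and was the only enzyme called at 0.8 µM at both times. Kynu read 12.46, 12.41, 12.36, 12.61 and 12.38 and changed by -0.32 (SE 0.08, adjusted p 0.0297). Cdo1 read 15.01, 15.07, 14.94, 15.07 and 14.85 and changed by -0.25 (SE 0.06, adjusted p 0.0184), as much as at 20 µM. Tdo2 read 16.12, 16.11, 15.999, 15.83 and 15.91 and changed by -0.22 (SE 0.06, adjusted p 0.0453). The 0.8 µM arrays of Kynu and Cdo1 lay below all vehicle arrays of 48 h, and those of Tdo2 overlapped them. Of the 6, Cth, Gldc and Agxt kept their call without each array in turn. The count fell to 3 without the 0.8 µM arrays numbered 3 or 5 or the vehicle array numbered 4, and to 2 with arrays centred on their medians. Kynu was lost without the 0.8 µM arrays numbered 2, 3 or 5 or the vehicle arrays numbered 2 or 4, Cdo1 without the 0.8 µM arrays numbered 3 or 5 or the vehicle array numbered 4, and Tdo2 without the 0.8 µM arrays numbered 3, 4 or 5 or the vehicle arrays numbered 1, 3, 4 or 5. Without single arrays Kynu lay between -0.36 and -0.29, Cdo1 between -0.28 and -0.21 and Tdo2 between -0.26 and -0.18.

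Set against each other, the doses differed for most enzymes. At 24 h, 28 of 43 enzymes were lower at 20 µM than at 0.8 µM and 0 higher, where 6.94% of all genes were lower, with a median of -0.34. At 48 h, 33 were lower and 0 higher, where 12.4% of all genes were lower, with a median of -0.45. Under all other settings and with each array left out, 20 of the 28 calls at 24 h and 30 of the 33 at 48 h were kept. The smallest adjusted p was that of Bhmt, which differed by -1.49 (SE 0.08, adjusted p 9.13e-16) at 48 h, with 0.8 µM arrays at 16.29, 16.14, 16.25, 16.08 and 16.03. Cdo1 did not separate the doses at 48 h, with a difference of 0.00 and a 95% interval of -0.12 to 0.12. Agxt did not separate them at 24 h, with -0.07 and an interval of -0.23 to 0.09, and did at 48 h, with -0.32 (adjusted p 0.00183). Oat and Mccc1, not called against vehicle, were lower at 20 µM than at 0.8 µM at 48 h, by 0.37 and 0.40 (adjusted p 1.07e-04 and 0.00919). Both had 0.8 µM means above vehicle, by differences of 0.22 and 0.23 that were not called.

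Time in culture alone moved fewer enzymes and in both directions. In vehicle, 5 of 43 were lower at 48 h than at 24 h, where 6.71% of all genes were lower, and 7 were higher, where 6.48% were. The lower ones were Hal (-0.56), Gpt (-0.43), Sardh (-0.38), Kmo (-0.34) and Aldh4a1 (-0.27). The higher ones were Gldc (0.51), Got1 (0.45), Kynu (0.41), Csad (0.33), Acmsd (0.25), Cth (0.24) and Dmgdh (0.19). The count of higher enzymes fell to 4 without the vehicle arrays numbered 1 or 2 at 24 h or 3 or 5 at 48 h. Leaving out single arrays, Cth was called only without the array numbered 5 at 24 h, and otherwise lay between 0.20 and 0.26. Acmsd was lost without the arrays numbered 1, 2 or 5 at 24 h or 2 to 5 at 48 h, and Dmgdh without those numbered 1, 2 or 3 at 24 h or 3 or 5 at 48 h. Kmo was lost without those numbered 2 or 5 at 48 h, at -0.30 and -0.27. In the 20 µM cultures, 10 were lower at 48 h, where 5.36% of all genes were lower, and 3 were higher (Got1, Csad and Cdo1), where 5.06% were. Without the 20 µM array numbered 5 at 24 h, 6 were lower.

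Of a further 63 genes of amino acid breakdown, 56 were tested. This list, too, was chosen with earlier results of these data known. At 24 h, 38 were lower and 1 higher, beside 10.4% and 13.4% of all genes, with a median of -0.34. At 48 h, 42 were lower and 4 higher, beside 14.9% and 20.3% of all genes, with a median of -0.49. Among the largest falls at 48 h were hydroxyacid oxidase (Hao1), which makes the glyoxylate that Agxt removes, at -1.52 (adjusted p 5.21e-13), GABA aminotransferase (Abat) at -1.31 (adjusted p 6.02e-13) and aromatic amino acid decarboxylase (Ddc) at -1.24 (adjusted p 3.21e-09). The 4 higher ones at 48 h were glycine amidinotransferase (Gatm) at 0.70 (adjusted p 0.0254), aspartoacylase (Aspa) at 0.44 (adjusted p 0.00373), the kinase that switches off the branched-chain ketoacid dehydrogenase (Bckdk) at 0.29 (adjusted p 0.0323), and Mat2b, a regulatory subunit of the methyl donor synthetase that predominates outside adult liver, at 0.28 (adjusted p 7.64e-05). A separate list of alternative enzymes outside the liver type held 4 genes, of which 2 were tested. Of these, 1 was called higher at each time, beside 13.4% and 20.3% of all genes. The other changed by 0.04 and 0.36 without a call. The higher one was Mat2a, the catalytic subunit of the synthetase to which Mat2b belongs, at 0.26 (adjusted p 6.51e-04) and 0.21 (adjusted p 0.00369). Mat1a, its counterpart of adult liver, was lower, and a relation between the changes was not tested.

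Of 11 tested factors known to regulate these enzymes, 3 were lower at 24 h and 5 at 48 h, beside 10.4% and 14.9% of all genes. At either time 0 were higher, beside 13.4% and 20.3% of all genes. At each time 3 of the 11 changed upward without a call, by up to 0.32 at 24 h and 0.25 at 48 h. C/EBP alpha (Cebpa), which maintains the program of the mature hepatocyte, changed by -0.77 (SE 0.11, adjusted p 2.48e-06) and -1.13 (SE 0.11, adjusted p 6.33e-10). Klf15, a fasting-responsive factor that drives amino acid breakdown, changed by -0.46 (SE 0.09, adjusted p 1.80e-04) and -0.86 (SE 0.09, adjusted p 2.42e-09). C/EBP beta (Cebpb) fell by 0.19 and 0.18. The glucagon receptor (Gcgr) and the coactivator Ppargc1a were lower at 48 h, by 0.64 and 0.42. The glucocorticoid receptor (Nr3c1) and Hnf4a were not called at 48 h, at -0.15 (adjusted p 0.0885) and 0.03 (adjusted p 0.71). The part of these factors in the fall of the enzymes was not tested.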

How the data were processed

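Each of the 30 arrays measured total RNA of 1 culture well. The authors deposited probe set intensities on a linear scale, made with MAS5 per the submitters' processing notes; its version and scaling target are not given in the sources used here. Signals under 16 were set to 16 and log2 was taken. Probe sets with 1 symbol in the platform annotation were used (20832 of 31099), the brightest for each gene, and genes above the array's 40th percentile on at least 5 arrays were kept. limma 3.58.1 in R 4.3.3 fitted 1 mean per group over all 30 arrays, with a trend in eBayes, after being tested on simulated data. Adjusted p is Benjamini-Hochberg over 11494 genes, and 0.05 is the threshold. The 5 arrays per group limit the precision. The enzymes and lists were chosen with earlier results of these data known. Array values are given for the enzyme with the largest change in each pathway at 48 h, those called at 0.8 µM, those whose effect differed between times and the 3 with the smallest change. Other genes named were chosen after their values were seen. Alternatives covered the floor, filter, scaling, fit, probe set, threshold and single arrays.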

Additional observations from a re-analysis of the deposited data

Results flagged for a closer look

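Over the 43 enzymes, 18 of 258 groups of 5 arrays held an array set apart from the other 4. For independent, normally spread values the cut-off sets apart about 1 in 20 groups, or 12.9 here. The enzymes share the same arrays, so this number is only a rough guide. Values are log2 signals. In vehicle these were Cth at 24 h (array 5, high, 14.93) and Got1 at 48 h (array 2, low, 12.55). At 0.8 µM and 24 h they were Sds (array 5, low, 7.87), Mat1a (array 1, high, 13.78), Uroc1 (array 1, low, 11.24) and Bckdhb (array 4, high, 13.31). At 0.8 µM and 48 h they were Hgd (array 1, low, 11.24), Sds (array 1, low, 5.52), Sardh (array 4, low, 12.07), Aldh4a1 (array 3, high, 12.18) and Acmsd (array 5, low, 10.65). At 20 µM and 24 h Gldc was low on array 1 (11.95). At 20 µM and 48 h they were Sardh (array 1, high, 11.50), Hal (array 1, low, 9.12), Haao (array 5, low, 11.75), Acmsd (array 1, low, 10.31), Amt (array 4, high, 12.43) and Got1 (array 4, low, 12.35). The Sds array at 5.52 stood against others from 8.37 to 8.79.

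The fall at 20 µM was larger at 48 h than at 24 h for 7 enzymes by the test of the difference: Gldc (-0.75), Cth (-0.69), Kynu (-0.57), Hgd (-0.47), Bhmt (-0.46), Dmgdh (-0.37) and Tdo2 (-0.34).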

How the results depend on the processing

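The counts and medians at 20 µM against vehicle kept their direction under the 13 other settings and with each array left out: 28 to 32 and 30 to 33 enzymes were lower at 24 h, and 32 to 38 and 34 to 37 at 48 h. Of the enzymes lower at 24 h and 48 h, 26 of 32 and 32 of 35 were called in all of them. Prodh at 24 h changed sign, to 0.15, when its probe sets were averaged. With arrays centred on their medians the median change was -0.38 at 24 h and -0.28 for 20 µM against 0.8 µM at 24 h, the calls at 0.8 µM were 0 at 24 h and 2 at 48 h, 4 enzymes differed between the times, and 4 were higher with time in vehicle. The 24 h count at 0.8 µM was 0 without a trend, with only the compared groups and at an adjusted p under 0.01. That threshold also gave 2 at 0.8 µM and 48 h, 4 higher with time in vehicle and 6 lower with time at 20 µM. The median difference between the times was -0.20 with the mean of probe sets and with the second probe set. Leaving out single arrays gave 0 to 4 lower at 0.8 µM and 24 h, 3 to 7 lower and 0 to 1 higher at 48 h, 4 to 9 higher with time in vehicle, 6 to 10 lower with time at 20 µM, 0 to 1 enzymes with a smaller fall at 48 h, and a median difference between the times of -0.20 to -0.13; the cause was not tested. Of 2240 comparisons of single enzymes, 2130 stayed called or not called as before, 95 lost the call and 14 gained one. In 1, Prodh at 24 h, a called change turned to the other sign. Changes of sign without a call under either setting are counted among the 2130. The labels give no replicate numbers; 1 of the 13 settings had a term for each run of 6 array numbers, each holding 1 array of every group, and gave 31 and 36 enzymes lower at 24 h and 48 h. Signals near the background, as for Sds, carry the widest error.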
